A study of Mus musculus with 18 samples.

Results

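Undifferentiated 3T3-L1 cells labelled MLKL-/- were compared with undifferentiated 3T3-L1 cells labelled RIPK3-/-. 3T3-L1 is a mouse fibroblast line that turns into adipocytes in culture, and the series holds 18 RNA sequencing libraries, 3 in each of 6 groups. The 6 libraries compared were 3 of J0_MLKL (genotype MLKL-/-, untreated, J0 for undifferentiated) and 3 of J0_RIPK3 (genotype RIPK3-/-, untreated, J0). Cells labelled CTL at J0, also untreated 3T3-L1, are used as a reference level. How the knockouts were made, or whether each line is 1 clone, is not given in the sources used here. Nothing in the labels says that the 3 libraries of one line came from different dishes, and p-values therefore measure only the spread between these libraries, which may be technical. Genes qualified when the deposited tables held raw counts for both groups: 3710 of the 15194 genes of the series did, 3449 of them protein-coding, and 3455 had enough reads to be tested.

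MLKL and RIPK3 act in one pathway. In necroptosis, a lytic form of cell death, death receptors, Toll-like receptors or the nucleic acid sensor ZBP1 engage the kinase RIPK3, which phosphorylates the pseudokinase MLKL. Phosphorylated MLKL then oligomerises and permeabilises the plasma membrane. Preadipocytes are fibroblast-like progenitors that build collagen-rich matrix, respond to Wnt, TGF-beta, FGF and IGF signals and enter adipogenesis through C/EBP factors and PPARG.

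The 3 J0_MLKL libraries held 23.2, 28.4 and 25.9 M assigned reads, and the 3 J0_RIPK3 libraries held 25.4, 22.9 and 36.9 M. The authors deposited only genes that passed their own tests, and the genes with counts in J0_MLKL carried 29.3 to 30.4% of that group's reads. A gene entered this comparison only if it was listed in the authors' table of J0_MLKL against J0_CTL or of J7_MLKL against J0_MLKL, where J7 stands for differentiated cells. Counts of genes therefore describe a preselected set. Levels are CPM, reads per M assigned reads of the library, and differences are log2 fold changes of J0_MLKL over J0_RIPK3 with the standard error (SE). Adjusted p-values are from edgeR's quasi-likelihood F test with Benjamini-Hochberg adjustment over all 3455 genes, and a gene is called at an adjusted p below 0.05.

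Transcripts of both targeted genes were read in all 6 libraries and were lower in J0_MLKL. Mlkl (ENSMUSG00000012519, chromosome 8, 111311797 to 111338177, mm10) stood at 7.24, 9.72 and 7.19 CPM in J0_MLKL, 15.6, 14.5 and 17.7 CPM in J0_RIPK3 and 18.2, 19.8 and 18.6 CPM in J0_CTL. Ripk3 (ENSMUSG00000022221, chromosome 14, 55784995 to 55788865, mm10) stood at 5.73, 9.44 and 7.19 CPM in J0_MLKL, 14.7, 17.3 and 15.8 CPM in J0_RIPK3 and 19.6, 16.8 and 18.3 CPM in J0_CTL. For both genes every J0_MLKL library lay below every J0_RIPK3 library. The log2 fold change was -0.94 ± 0.15 for Mlkl (adjusted p 0.000956) and -1.05 ± 0.18 for Ripk3 (adjusted p 0.00134). Ripk3 reads were therefore fewer in the line labelled MLKL-/- than in the line labelled RIPK3-/-, where they overlapped the CTL level. A gene-level read count does not show whether a coding sequence is intact, so these levels do not check the labels. Of the 20 genes listed as necroptosis machinery, 17 had J0_RIPK3 counts and 3 could be tested. The third was Zbp1, at 0.819, 1.51 and 1.16 CPM in J0_MLKL and 0.591, 0.479 and 0.812 CPM in J0_RIPK3 (0.90 ± 0.32, adjusted p 0.0353). Its libraries did not overlap, but the call was lost for Zbp1 without J0_MLKL 2, J0_MLKL 3, J0_RIPK3 1 or J0_RIPK3 2 (0.65 to 0.92).

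Of 3455 tested genes, 2297 were called (66.5%), 1144 higher in J0_MLKL (33.1%) and 1153 lower (33.4%). Scaled by the authors' size factors in place of TMM, a normalisation that assumes most tested genes do not change, the split was 1050 higher and 1254 lower. Without J0_MLKL 2, which stood apart from its group, 2708 were called. A log2 fold change beyond 1 in either direction was reached by 617 called genes (17.9%), 274 higher and 343 lower, and a change beyond 2 by 152. The libraries of the groups did not overlap for 73.2% of tested genes. Among genes listed in the authors' table of J0_MLKL against J0_CTL, 1941 of 2594 were called (74.8%). Among the 861 that entered only through the differentiation table of MLKL cells, 356 were called (41.3%). These shares follow the way genes were listed, and each count for a gene group below is to be read against the 33.1% and 33.4% of all tested genes.

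The 10 lowest and 9 of the 10 highest called protein-coding genes with at least 5 CPM in the higher group are described first. The rule took only genes whose J0_MLKL and J0_RIPK3 libraries did not overlap, so that separation is not a result. The lowest were nearly silent in J0_MLKL and well read in J0_RIPK3. Rab12, a small GTPase of endosomal and lysosomal trafficking (ENSMUSG00000023460, chromosome 17, 66494512 to 66519717, mm10), stood at 1.21, 0.845 and 0.773 CPM in J0_MLKL and 37.2, 38.9 and 37.8 CPM in J0_RIPK3. In J0_CTL it stood at 35.1, 34.0 and 31.6 CPM, close to J0_RIPK3 and far above J0_MLKL. The difference was 40.8-fold in pooled reads (log2 -5.30 ± 0.14, adjusted p 4.81e-07). Timp3, a matrix-bound inhibitor of metalloproteases (ENSMUSG00000020044, chromosome 10, 86300372 to 86349506, mm10), had 1.68, 0.669 and 1.74 CPM in J0_MLKL against 36.3, 38.00 and 37.3 CPM in J0_RIPK3 and 51.7, 50.6 and 55.3 CPM in J0_CTL. It was 28.0-fold lower in J0_MLKL than in J0_RIPK3 (log2 -4.75 ± 0.24, adjusted p 5.53e-06), with no library of either group near the other. Cpm, the membrane carboxypeptidase M gene (ENSMUSG00000020183, chromosome 10, 117629500 to 117687352, mm10), moved in both lines. It had 1.98, 1.797 and 2.36 CPM in J0_MLKL, 66.4, 67.5 and 68.5 CPM in J0_RIPK3 and 22.9, 21.2 and 21.4 CPM in J0_CTL, so the groups lay on opposite sides of CTL and 33.2-fold apart (log2 -5.00 ± 0.11, adjusted p 2.13e-07).

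The other 7 of the 10 lowest genes ranged from -4.93 to -3.75. They were the predicted gene Gm773, the cell adhesion gene Pcdh17 (-4.33), the choline transporter gene Slc5a7 (-4.09), AW551984 (-4.06), the adhesion G protein-coupled receptor gene Adgrg2 (-4.06), the neuronal splicing factor gene Nova1 (-3.86) and the Slit-Robo GTPase-activating gene Srgap1. Gm773 had 0.172, 0.282 and 0.464 CPM in J0_MLKL and 9.41, 10.2 and 9.91 CPM in J0_RIPK3. Slc5a7 had 0.517, 0.669 and 0.811 CPM in J0_MLKL and 12.8, 10.6 and 12.1 CPM in J0_RIPK3. By the rule that picked the 10 genes, their 3 J0_MLKL libraries lay below the 3 J0_RIPK3 libraries. The J0_MLKL libraries also lay below the 3 J0_CTL libraries, which the rule did not use.

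The genes with the highest values in J0_MLKL included a BMP antagonist and a Wnt receptor. Chrdl1, a secreted antagonist of BMP ligands (ENSMUSG00000031283, chromosome X, 143285674 to 143394262, mm10), had 40.7, 29.7 and 45.5 CPM in J0_MLKL, 1.65, 1.92 and 1.49 CPM in J0_RIPK3 and 0.402, 0.549 and 0.363 CPM in J0_CTL. The MLKL libraries stood 23.2-fold above the RIPK3 libraries in pooled reads (log2 4.57 ± 0.20, adjusted p 4.35e-06). Ror2, a receptor tyrosine kinase for WNT5A (ENSMUSG00000021464, chromosome 13, 53109312 to 53286124, mm10), had 13.8, 13.8 and 10.8 CPM in J0_MLKL against 0.787, 1.18 and 1.03 CPM in J0_RIPK3 and 1.12, 1.10 and 0.848 CPM in J0_CTL (log2 3.72 ± 0.19, adjusted p 5.33e-06). Here J0_RIPK3 overlapped J0_CTL and J0_MLKL stood apart from both.

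Ugt2b5, a glucuronosyltransferase gene, showed the largest value of the 9. It had 3.97, 6.16 and 5.22 CPM in J0_MLKL and 0.0787, 0.174 and 0.162 CPM in J0_RIPK3, with 1.84, 2.71 and 2.74 CPM in J0_CTL between them (log2 5.19 ± 0.32, adjusted p 1.23e-05). Its family members are near copies of each other, so reads may have been split among them. The remaining 6 were the netrin-like adhesion gene Ntng1 (3.80), the fibulin gene Fbln7 (3.63), Pi15 (3.37), the cationic amino acid transporter gene Slc7a2 (3.36), the olfactomedin gene Olfm2 (3.03) and the small proteoglycan gene Fmod. Fmod, which encodes the collagen-binding protein fibromodulin, was read most often of the 9, at 315, 347 and 359.5 CPM in J0_MLKL and 54.0, 63.1 and 54.7 CPM in J0_RIPK3 (log2 2.61 ± 0.09, adjusted p 1.28e-06). No J0_MLKL library of these 9 genes overlapped a J0_CTL library, while the lack of overlap with J0_RIPK3 was required by the rule.

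**Figure D1:**
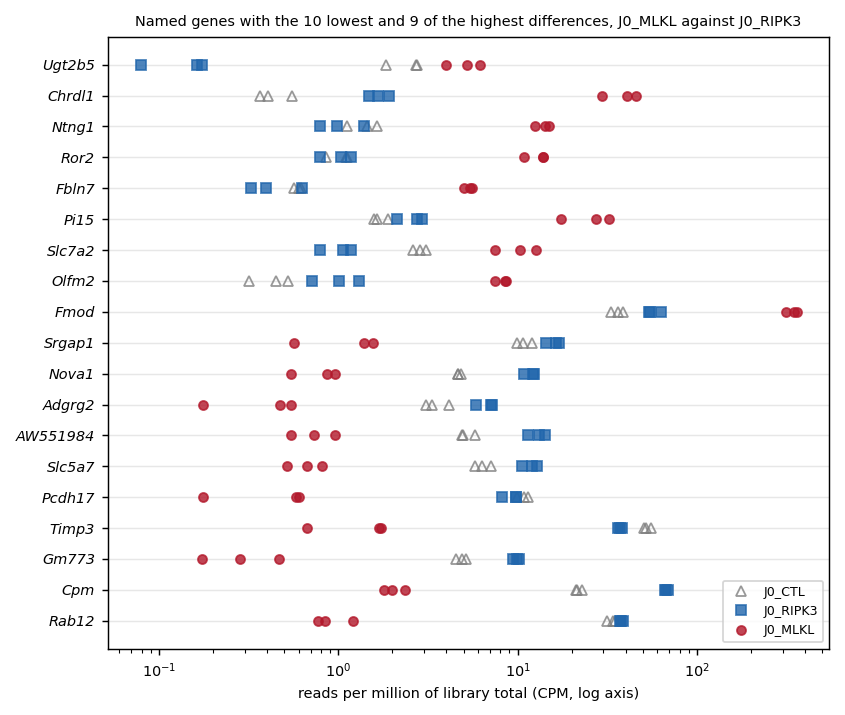
Level of the 10 lowest and 9 of the 10 highest genes in each undifferentiated library, as CPM on a log axis, with red circles for J0_MLKL, blue squares for J0_RIPK3 and open grey triangles for J0_CTL (3 libraries each). As the rule for these genes requires, J0_MLKL lies to the left of J0_RIPK3 for the 10 lower genes and to the right for the 9 higher genes. They run from Rab12 (-5.30) to Ugt2b5 (5.19).

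Cell cycle genes were lower in J0_MLKL than in J0_RIPK3. Of 13 tested members of the 40-gene list, 12 were lower, 0 were higher and the median was -1.60, beside 0.01 over all tested genes. Kif20a, a mitotic kinesin needed for cytokinesis (ENSMUSG00000003779, chromosome 18, 34624624 to 34633265, mm10), had 15.0, 12.2 and 13.9 CPM in J0_MLKL and 56.9, 59.7 and 50.7 CPM in J0_RIPK3, with 18.7, 17.97 and 20.6 CPM in J0_CTL. The lines differed by -1.99 ± 0.10 (adjusted p 5.65e-06), and J0_MLKL lay just below CTL while J0_RIPK3 lay far above it. Ccne1, the G1/S cyclin E1 gene (ENSMUSG00000002068, chromosome 7, 38097984 to 38107534, mm10), had 4.92, 5.81 and 3.94 CPM in J0_MLKL, 17.3, 20.7 and 18.1 CPM in J0_RIPK3 and 11.6, 11.1 and 12.0 CPM in J0_CTL (log2 -1.89 ± 0.15, adjusted p 4.06e-05). For Ccne1 the lines lay on either side of CTL. The checkpoint kinase gene Bub1 (-1.88), the second E cyclin Ccne2 (-1.85), the S phase transcription factor Mybl2 (-1.70), the ribonucleotide reductase subunit Rrm2 (-1.60), the spindle gene Tpx2 (-1.44) and the mitotic kinase gene Aurkb (-1.43) were lower by similar amounts. The D cyclin genes differed by -1.02 for Ccnd2 and -0.80 for Ccnd1. Only the licensing factor Cdt1 was not called (0.08). In mean CPM, J0_RIPK3 stood above J0_CTL for all 12 lower genes. J0_MLKL stood below J0_CTL for all of them but Mcm6 (64.3 CPM against 49.5 in J0_CTL), in several cases by little. Rrm2, for one, had 18.2 CPM in J0_MLKL, 23.5 in J0_CTL and 56.7 in J0_RIPK3, and Tpx2 had 23.2, 28.8 and 64.6. The other 27 listed genes had no J0_MLKL counts in the tables used here.

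Targets of the tumour suppressor p53 were lower as well. Of 16 tested p53 targets, 12 were lower, 1 was higher and the median was -0.81. The nucleolar nuclease gene Aen had 27.2, 28.9 and 26.5 CPM in J0_MLKL and 61.8, 62.4 and 59.3 CPM in J0_RIPK3 (log2 -1.11 ± 0.07, adjusted p 1.26e-05). Ckap2, a spindle gene that also counts as a mitotic gene, differed most (-1.49 ± 0.09). The cell cycle inhibitor gene Cdkn1a (-0.79), the death gene Bbc3 (-0.82), the death receptor gene Eda2r (-1.08), Trp53inp1 (-1.11), Ccng1 (-0.87), the splicing regulator gene Zmat3 (-0.84) and the stress-induced Sesn2 (-1.0) were lower too. The libraries of the lines did not overlap for any of those named here. The single higher target was Mdm2, the ubiquitin ligase that degrades p53. Without J0_MLKL 2, the library that stood apart from its group, 2 p53 targets were higher and 12 lower, and the cell cycle count stayed at 12 lower.

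A pair of the cell cycle genes carry a match to an E2F element close upstream of their start, shown because E2F factors are known to drive S phase genes. Cdc6 loads the replicative helicase and Mcm6 is one of its subunits. The windows below come from RefSeq promoters on GRCm38.p6, read 5′ to 3′ on the gene's strand, with only the first match in capitals. The Mcm6 window holds a further match that overlaps the capitals and runs into the lower-case letters.
Cdc6 (chr11:98907988-98908045, plus strand): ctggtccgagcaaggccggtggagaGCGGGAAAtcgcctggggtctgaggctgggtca
Mcm6 (chr1:128359783-128359840, minus strand): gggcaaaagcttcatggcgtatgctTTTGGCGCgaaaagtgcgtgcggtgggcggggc
The letters searched were TTTGGCGC, TTTCCCGC and TTTCGCGC on both strands, in the 250 bases before the start. Of 13 tested cell cycle genes, 7 had a promoter in the RefSeq table and 2 of those held a match, while 1.53% of 32851 promoters did. Cdc6 stood at 2.76, 2.43 and 2.09 CPM in J0_MLKL and 8.50, 7.76 and 7.17 CPM in J0_RIPK3 (log2 -1.64 ± 0.15), and Mcm6 at 64.3, 67.6 and 60.8 and 95.2, 102 and 95.9 CPM (log2 -0.56 ± 0.07). Both were lower in all 3 J0_MLKL libraries than in any J0_RIPK3 library. A match is a description of these letters and not evidence of binding.

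The higher p53 target, Mdm2, also stood apart from its neighbours on chromosome 10. Mdm2 (ENSMUSG00000020184, chromosome 10, 117688875 to 117710758, mm10) had 2586, 2272 and 2568 CPM in J0_MLKL, 1817, 1772 and 1844 CPM in J0_RIPK3 and 1085, 1116 and 1099 CPM in J0_CTL. Its neighbour Slc35e3, a nucleotide sugar transporter family gene (ENSMUSG00000060181, chromosome 10, 117733679 to 117746365, mm10), had 1017, 969 and 1036 CPM in J0_MLKL, 745, 776 and 763 CPM in J0_RIPK3 and 391, 397 and 380.4 CPM in J0_CTL. Both genes were ordered J0_MLKL, J0_RIPK3, J0_CTL from high to low with no overlap, and the lines differed by 0.49 ± 0.06 for Mdm2 (adjusted p 0.000355) and 0.44 ± 0.05 for Slc35e3 (adjusted p 0.000247). The next gene along, the nuclear pore gene Nup107 (ENSMUSG00000052798, chromosome 10, 117750621 to 117792705, mm10), went the other way. It had 122, 112 and 121 CPM in J0_MLKL, 386, 412 and 408 CPM in J0_RIPK3 and 433, 447 and 444 CPM in J0_CTL (log2 -1.73 ± 0.06, adjusted p 1.64e-06).

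Within 1 Mb on either side of Mdm2, a span chosen after these values were seen, 16 genes were tested. Mdm2 and Slc35e3 were higher in J0_MLKL, 12 were lower, from -5.00 for Cpm, the gene next to Mdm2 on its other side, to -0.49, and 2 were not called. For 9 of the 12 the mean level fell in the order J0_CTL, J0_RIPK3, J0_MLKL, the reverse of the order for Mdm2. The chaperonin gene Cct2 had 519, 661 and 523 CPM in J0_MLKL, 1040.3, 1063 and 1030.4 CPM in J0_RIPK3 and 1294, 1244 and 1249.8 CPM in J0_CTL (log2 -0.84 ± 0.10). The chromatin reader gene Yeats4 had 75.5, 91.1 and 69.4 CPM in J0_MLKL, 178, 188 and 182 CPM in J0_RIPK3 and 233, 222 and 221 CPM in J0_CTL (log2 -1.17 ± 0.10). These genes therefore separated the 3 groups without overlap. The FGF receptor adaptor Frs2 (-0.82), the small GTPase gene Rap1b (-0.67), the polyadenylation factor Cpsf6 (-0.56) and Mdm1 (-1.31) followed the same order. Exceptions to it were Cpm, Lrrc10 and the non-coding Gm10747, whose J0_RIPK3 mean was above the J0_CTL mean. Lyz1 (-2.52) and Lyz2 are near-identical lysozyme genes, and reads may have been split between them.

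**Figure D2:**
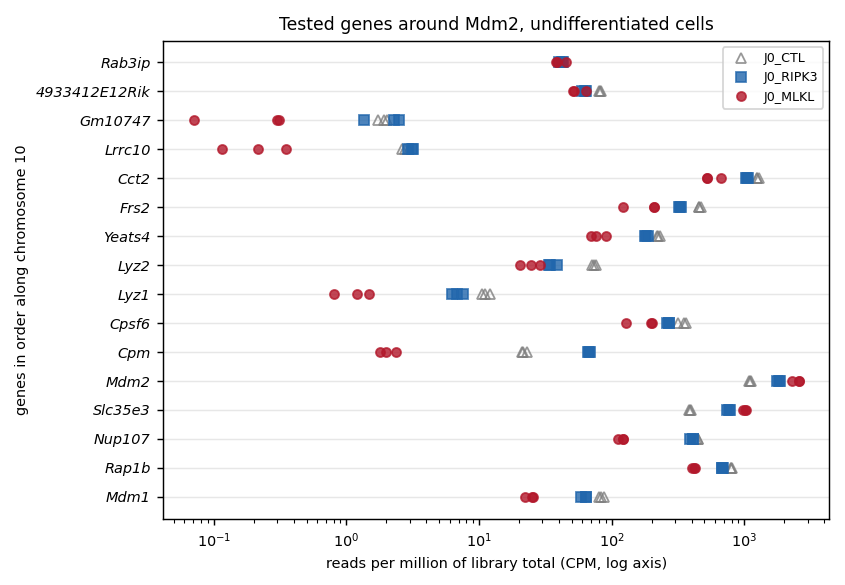
Level of the 16 tested genes within 1 Mb of Mdm2 in each undifferentiated library, in their order along chromosome 10, as CPM on a log axis (red circles J0_MLKL, blue squares J0_RIPK3, open grey triangles J0_CTL). Mdm2 and Slc35e3 are highest in J0_MLKL, and 12 of the genes around them are lower there than in J0_RIPK3.

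Transcription factors listed for adipogenesis were mostly lower in J0_MLKL. The list does not separate factors that promote adipogenesis from factors that oppose it, so its counts give no direction for adipogenesis. Of 15 tested, 9 were lower, 3 were higher and the median was -0.52. Without J0_MLKL 2, 9 were lower and 4 higher. Cebpa, which with PPARG drives the terminal stage of adipogenesis (ENSMUSG00000034957, chromosome 7, 35119293 to 35121928, mm10), had 10.1, 13.1 and 10.9 CPM in J0_MLKL, 30.1, 30.8 and 30.5 CPM in J0_RIPK3 and 16.3, 16.2 and 18.3 CPM in J0_CTL (log2 -1.38 ± 0.11, adjusted p 3.59e-05). Ebf2, a factor of committed preadipocytes, had 2.46, 1.48 and 3.25 CPM in J0_MLKL, 13.9, 15.3 and 13.9 CPM in J0_RIPK3 and 4.05, 5.18 and 5.17 CPM in J0_CTL (log2 -2.55 ± 0.23, adjusted p 6.31e-05). Both placed J0_MLKL below and J0_RIPK3 above the CTL level. Pparg itself followed with a smaller difference, at 21.99, 22.4 and 17.1 CPM against 32.7, 30.5 and 31.3 CPM (log2 -0.58 ± 0.11, adjusted p 0.00297). The glucocorticoid receptor gene Nr3c1 (-0.53), the preadipocyte factor Zfp423 (-0.52), Klf4 (-0.72), Bcl6 (-0.68), Rxra (-0.25) and Gata3 (-0.78) were lower as well. The higher members were Gata2 (0.75), the liver X receptor gene Nr1h3 (0.58) and Srebf1 (0.33). These higher calls did not all hold: they were lost for Nr1h3 without J0_MLKL 1, J0_RIPK3 1 or J0_RIPK3 3 and in 2 other alternatives (0.37 to 0.61) and for Srebf1 without J0_RIPK3 2 (0.28). Of the lower calls, significance was lost for Nr3c1 without J0_RIPK3 1, J0_RIPK3 2 or J0_RIPK3 3 (-0.55 to -0.53).

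Among 12 tested adipocyte markers 5 were higher and 3 lower, with or without J0_MLKL 2, and 3 were higher and 4 lower under the authors' scaling. Fabp4, the adipocyte fatty acid carrier (ENSMUSG00000062515, chromosome 3, 10204088 to 10208576, mm10), had 1.51, 1.37 and 0.889 CPM in J0_MLKL and 9.65, 8.76 and 7.88 CPM in J0_RIPK3, with 5.92, 6.38 and 5.85 CPM in J0_CTL (log2 -2.76 ± 0.20, adjusted p 2.30e-05). The desaturase gene Scd1 differed by -0.96 ± 0.11 (adjusted p 0.000187) and the triglyceride enzyme gene Dgat2 by -0.31 ± 0.11 (adjusted p 0.0346). Lpl, the lipoprotein lipase gene, went the other way, with 462, 363 and 478 CPM in J0_MLKL and 273, 283 and 275 CPM in J0_RIPK3 (log2 0.69 ± 0.10, adjusted p 0.000628). The other higher members were Acsl1 (0.43), Agpat2 (0.37), Dgat1 (0.34) and the lipase gene Lipe (0.23). Scaled by the authors' size factors, the list had 3 higher and 4 lower. These calls were the fragile ones: they were lost for Agpat2 without J0_MLKL 1, J0_RIPK3 2 or J0_RIPK3 3 (0.32 to 0.38), Dgat1 without J0_RIPK3 1, J0_RIPK3 2 or J0_RIPK3 3 and in 3 other alternatives (0.28 to 0.35), Lipe without J0_MLKL 1, J0_MLKL 3, J0_RIPK3 1, J0_RIPK3 2 or J0_RIPK3 3 and in 5 other alternatives (0.17 to 0.26) and Dgat2 without J0_MLKL 1, J0_MLKL 2, J0_MLKL 3, J0_RIPK3 1, J0_RIPK3 2 or J0_RIPK3 3 and in 3 other alternatives (-0.34 to -0.28).

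Genes that make fatty acids and cholesterol were lower in J0_MLKL than in J0_RIPK3. Of 10 tested genes of lipid synthesis and oxidation, 7 were lower, 1 was higher and the median was -0.47. Without J0_MLKL 2, 8 were lower and 1 higher. The acetyl-CoA synthetase gene Acss2 had 8.54, 8.95 and 7.96 CPM in J0_MLKL and 23.9, 24.4 and 24.5 CPM in J0_RIPK3 (log2 -1.47 ± 0.09), and the elongase gene Elovl6 differed by -0.89 ± 0.16. Fasn, the fatty acid synthase gene (-0.50), Lpin1 (-0.72), Cpt1c (-0.67), Cpt2 (-0.45) and Me1 (-0.23) were lower too, while the dehydrogenase gene Acadm was higher (0.29). Significance was lost for Cpt2 without J0_MLKL 1 or J0_MLKL 3 (-0.39 to -0.34) and Me1 without J0_MLKL 1 or J0_MLKL 3 (-0.21 to -0.20). In the cholesterol list 8 of 10 tested were lower, 0 were higher and the median was -0.77. Stard4, a sterol carrier gene on chromosome 18, had 25.7, 18.1 and 23.6 CPM in J0_MLKL and 67.9, 66.6 and 67.1 CPM in J0_RIPK3 (log2 -1.54 ± 0.12). The synthesis genes Cyp51 (-1.17), Hmgcs1 (-0.72) and Sc5d (-0.39) and their regulator Srebf2 (-0.38) were lower too. For these genes J0_RIPK3 stood above J0_CTL, and J0_MLKL was not always below it. Mean levels in J0_MLKL, J0_CTL and J0_RIPK3 were 34.0, 27.4 and 78.4 CPM for Cyp51 and 84.8, 87.6 and 144 CPM for Hmgcs1. They were 36.5, 34.6 and 49.3 CPM for Sc5d, 133, 148 and 177 CPM for Srebf2 and 22.5, 34.9 and 67.2 CPM for Stard4. The members not called were the efflux transporter genes Abca1 (0.24) and Abcg1 (0.31). Without J0_MLKL 2 the cholesterol list had 1 higher and 8 lower.

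**Figure D3:**
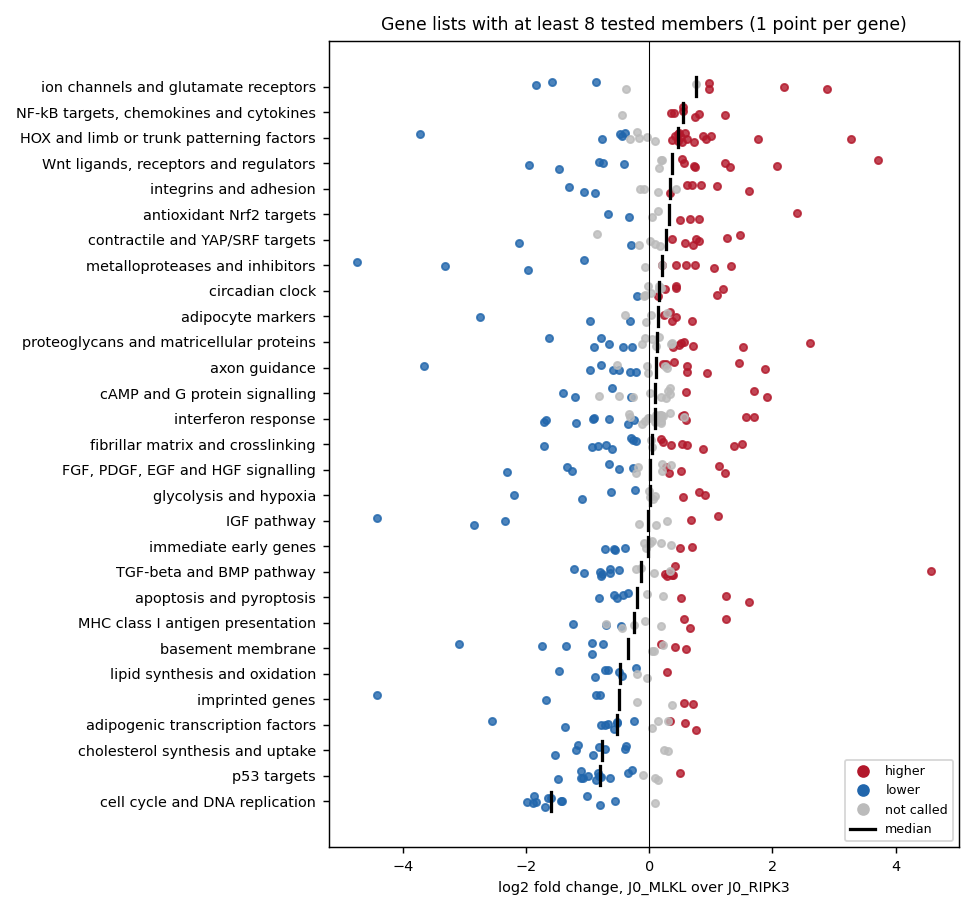
Log2 fold change of J0_MLKL over J0_RIPK3 for every tested member of the pathway lists with at least 8 tested members, sorted by the list's median (black bar), with called genes in red (higher) or blue (lower) and others in grey. The cell cycle (median -1.60), p53 (-0.81) and cholesterol (-0.77) lists lie lowest, and most lists in the middle hold genes on both sides of 0.

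Interferon-stimulated genes, which encode antiviral proteins, were called in both directions. Of 29 tested, 5 were higher, 8 were lower, 16 were not called and the median was 0.09. Without J0_MLKL 2, 6 were higher and 11 lower. Mx1, a GTPase that restricts viruses (ENSMUSG00000000386, chromosome 16, 97447035 to 97462907, mm10), had 3.28, 2.89 and 4.52 CPM in J0_MLKL, 0.748, 1.26 and 1.33 CPM in J0_RIPK3 and 4.80, 4.36 and 6.58 CPM in J0_CTL (log2 1.70 ± 0.27, adjusted p 0.000966). Oas2, which makes the second messenger that activates RNase L, had 1.08, 0.916 and 0.966 CPM in J0_MLKL, 2.09, 3.05 and 4.68 CPM in J0_RIPK3 and 17.1, 18.97 and 16.1 CPM in J0_CTL (log2 -1.71 ± 0.32, adjusted p 0.00230). The RNA sensor gene Ifih1 had 0.474, 0.282 and 0.348 CPM in J0_MLKL, 0.906, 1.39 and 1.33 CPM in J0_RIPK3 and 7.79, 7.48 and 6.74 CPM in J0_CTL (log2 -1.69 ± 0.31, adjusted p 0.00202). In all 3 genes the knockout lines differed from each other while J0_CTL stood above both in mean. Higher in J0_MLKL besides Mx1 were the guanylate-binding protein gene Gbp9 (1.57), Parp14 (0.59), the GTPase gene Igtp (0.55) and Xaf1 (0.54). Lower besides Oas2 and Ifih1 were Oas1a (-1.20), Ifi44 (-0.91), Rtp4 (-0.91), the ubiquitin-like modifier gene Isg15 (-0.66), the sensor gene Ddx58 (-0.35) and Stat2 (-0.26). Calls were lost for Oas1a without J0_MLKL 1, J0_MLKL 3 or J0_RIPK3 3 (-1.16 to -0.80), Parp14 without J0_MLKL 1, J0_MLKL 3, J0_RIPK3 1 or J0_RIPK3 2 (0.45 to 0.55), Ddx58 without J0_RIPK3 3 (-0.29) and Stat2 without J0_MLKL 3, J0_RIPK3 1, J0_RIPK3 2 or J0_RIPK3 3 and in 1 other alternative (-0.29 to -0.23). Oas1a, Gbp9 and other members have near-identical copies, so their reads may have been split. Mean levels in J0_MLKL and J0_RIPK3 were low, at 0.36 and 0.82 CPM for Oas1a and 1.02 and 0.35 CPM for Gbp9.

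The shared element of this family, an interferon-stimulated response element, is shown for genes that differed in opposite directions. The windows are RefSeq promoter sequence on GRCm38.p6, 5′ to 3′ on the gene's strand, with only the first match in capitals. The Oas1a and Isg15 windows hold further matches that run into the lower-case letters. The letters searched were GAAA, any 2 bases and GAAA again, or the reverse complement, on both strands.
Oas1a, lower (chr5:120907526-120907570, minus strand): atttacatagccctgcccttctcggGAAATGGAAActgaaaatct
Isg15, lower (chr4:156200862-156200921, minus strand): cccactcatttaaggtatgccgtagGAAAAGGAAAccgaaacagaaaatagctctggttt
Igtp, higher (chr11:58199497-58199555, plus strand): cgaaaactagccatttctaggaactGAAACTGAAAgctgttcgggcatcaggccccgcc
Gbp7, not called (chr3:142530258-142530317, plus strand): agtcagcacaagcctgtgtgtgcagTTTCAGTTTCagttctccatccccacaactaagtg
Of the 29 tested interferon genes, 18 had a promoter in the RefSeq table, and 10 of those held a match in the 250 bases before the start, beside 2.98% of 32851 promoters. Those 10 comprised 1 higher, 3 lower and 6 uncalled genes, so genes with the letters went either way. Isg15 stood at 6.60, 7.57 and 6.37 CPM in J0_MLKL and 8.39, 12.4 and 12.6 CPM in J0_RIPK3, and Igtp at 6.30, 7.01 and 5.99 and 4.57, 4.18 and 4.74 CPM. Gbp7 differed by 0.56 ± 0.23 (adjusted p 0.0562).

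Inflammatory genes were higher in J0_MLKL. Of 8 tested NF-kB targets, chemokines and cytokines, 7 were higher in J0_MLKL, 0 were lower and the median was 0.54. C3, the central complement component (ENSMUSG00000024164, chromosome 17, 57203970 to 57228136, mm10), had 639, 588 and 666 CPM in J0_MLKL, 275, 283 and 278 CPM in J0_RIPK3 and 246, 237 and 235 CPM in J0_CTL (log2 1.22 ± 0.06, adjusted p 5.53e-06). The neutrophil chemokine gene Cxcl5 had 56.6, 60.6 and 57.3 CPM in J0_MLKL and 35.2, 34.1 and 32.9 CPM in J0_RIPK3 (log2 0.81 ± 0.07). For C3 the J0_RIPK3 libraries lay a little above J0_CTL, for Cxcl5 they overlapped it, and J0_MLKL stood above both groups in each case. The monocyte chemokine gene Ccl7 (0.74), Nfkb1 (0.55), Cxcl12 (0.54), the adhesion molecule gene Vcam1 (0.41) and Csf1 (0.35) were higher too, and Ccl5 was not called (-0.44). Neither leaving out J0_MLKL 2 nor the authors' scaling moved this count. The other 18 of the 26 listed genes could not be tested.

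Genes of MHC class I presentation were divided, with 3 higher, 3 lower and 5 not called of 11, 3 higher and 6 lower without J0_MLKL 2, and 3 higher and 5 lower under the authors' scaling. H2-T23 (1.25), the immunoproteasome gene Psmb10 (0.65) and the peptide-loading gene Tapbp (0.56) were higher. The class I transactivator gene Nlrc5 (-1.24), Psmb9 (-0.71) and H2-K1 (-0.46) were lower, so the immunoproteasome subunits Psmb9 and Psmb10 differed in opposite directions. Leaving out 1 library ended the call of Psmb10 without J0_RIPK3 1 or J0_RIPK3 3 (0.60 to 0.61), H2-K1 without J0_MLKL 1, J0_MLKL 3, J0_RIPK3 2 or J0_RIPK3 3 (-0.49 to -0.34) and Psmb9 without J0_MLKL 1, J0_MLKL 3, J0_RIPK3 2 or J0_RIPK3 3 (-0.69 to -0.57). Class I genes are near copies of each other, so reads may have been shared among them.

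Effectors of other forms of cell death were divided too. Of 10 tested apoptosis and pyroptosis genes, 3 were higher and 5 lower, or 3 and 6 of 11 without J0_MLKL 2. Gsdmd, the pore-forming executor of pyroptosis (ENSMUSG00000022575, chromosome 15, 75862327 to 75867408, mm10), had 10.4, 13.0 and 11.01 CPM in J0_MLKL, 4.65, 3.18 and 3.68 CPM in J0_RIPK3 and 3.94, 5.15 and 3.67 CPM in J0_CTL (log2 1.62 ± 0.16, adjusted p 0.000105). The cytokine gene Il18 had 7.80, 10.5 and 9.39 CPM in J0_MLKL and 3.19, 4.18 and 4.63 CPM in J0_RIPK3 (log2 1.24 ± 0.18), and Casp12 differed by 0.52 ± 0.07. The 3 higher genes therefore included a pyroptotic pore gene and a cytokine released by pyroptotic cells. The lower genes included the BH3-only genes Bbc3 (-0.82) and Bcl2l11 (-0.43), the survival gene Bcl2l1 (-0.57) and the second gasdermin Gsdme (-0.35). The call was lost for Gsdme without J0_MLKL 1, J0_RIPK3 1 or J0_RIPK3 2 (-0.36 to -0.27).

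Matrix genes were called in both directions within families. Of 18 fibrillar matrix and crosslinking genes, 8 were higher and 8 lower (median 0.04), or 6 and 8 under the authors' scaling. Mfap5, a microfibril protein gene, had 39.7, 47.8 and 39.4 CPM in J0_MLKL and 15.0, 17.0 and 14.3 CPM in J0_RIPK3 (log2 1.498 ± 0.11), and Col11a1 (1.37), Mfap4 (0.87) and Fbln1 (0.62) were higher too. Col12a1, a fibril-associated collagen gene, had 40.8, 28.1 and 45.3 CPM in J0_MLKL and 129, 124 and 133 CPM in J0_RIPK3 (log2 -1.72 ± 0.16), and the elastin gene Eln (-0.93), the fibrillin gene Fbn1 (-0.84) and Fbln5 (-0.61) were lower. Elastic fibre genes thus fell on both sides. Among 12 basement membrane genes 6 were lower and 3 higher. The laminin gene Lama2 had 1.85, 2.47 and 3.05 CPM in J0_MLKL, 22.3, 21.4 and 21.4 CPM in J0_RIPK3 and 11.6, 11.8 and 10.6 CPM in J0_CTL (log2 -3.09 ± 0.16), and Col15a1 (-1.75), Nid2 (-1.35), Agrn (-0.94), Col18a1 (-0.93) and Col4a5 (-0.75) were lower too. The higher ones were Lamb2 (0.60), Sparc (0.42) and Col4a2 (0.19). The call was lost for Col4a2 without J0_MLKL 1, J0_MLKL 3, J0_RIPK3 1, J0_RIPK3 2 or J0_RIPK3 3 and in 4 other alternatives (0.14 to 0.19), and without J0_MLKL 2 the list had 6 higher and 6 lower.

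In 20 tested proteoglycan and matricellular genes 7 were higher and 6 lower, or 9 and 7 without J0_MLKL 2. Beside Fmod, the small proteoglycan genes Ogn (1.52) and Aspn (0.71) were higher, and Lum was lower (-0.65). Has2, which makes hyaluronan, had 15.5, 11.3 and 13.5 CPM in J0_MLKL, 42.7, 43.5 and 42.7 CPM in J0_RIPK3 and 62.2, 61.4 and 62.1 CPM in J0_CTL (log2 -1.64 ± 0.11, adjusted p 1.93e-05), and the hyaluronan-binding Vcan (-0.91) was lower with it. Among metalloproteases and their inhibitors 6 of 12 were higher and 4 lower, or 7 and 4 without J0_MLKL 2. The matrix metalloprotease genes Mmp9 (1.33), Mmp11 (1.05), Mmp23 (0.73), Mmp13 (0.59) and Mmp14 (0.21) were higher, as was the inhibitor gene Timp2 (0.43). The inhibitor gene Timp4 (-1.98) was lower together with Timp3, and so were the adamalysin genes Adamts15 (-3.32) and Adam19 (-1.06). Called matrix metalloproteases were therefore all on the higher side, and the TIMP inhibitors were on both.

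Contractile and adhesion genes were more often higher. In the contractile and YAP/SRF list 7 of 14 were higher and 2 lower (median 0.27). Lmod1, an actin nucleator of smooth muscle, had 7.59, 9.27 and 8.23 CPM in J0_MLKL and 3.11, 3.53 and 2.76 CPM in J0_RIPK3 (log2 1.47 ± 0.15), and the myosin kinase gene Mylk (1.26), Cnn2 (0.80), the smooth muscle actin gene Acta2 (0.76) and Tpm1 (0.72) were higher with it. The YAP target gene Ctgf went the other way, at 0.388, 0.775 and 0.502 CPM in J0_MLKL, 2.32, 2.57 and 2.68 CPM in J0_RIPK3 and 0.316, 0.377 and 0.323 CPM in J0_CTL (log2 -2.11 ± 0.26), and Axl differed by -0.30 ± 0.05. For Ctgf the J0_RIPK3 libraries stood above those of J0_CTL, which had the lowest mean. Without J0_MLKL 2 this list had 8 higher and 4 lower. Of 13 integrin and adhesion genes 6 were higher and 3 lower, or 7 and 3 without J0_MLKL 2. The collagen receptor gene Itga1 had 33.2, 24.7 and 37.9 CPM in J0_MLKL and 10.6, 10.6 and 10.8 CPM in J0_RIPK3 (log2 1.62 ± 0.15), with Itga3 (1.10), Itgb5 (0.84), Itga11 (0.61), Ncam1 (0.69) and Itgb1 (0.33). The lower ones were not integrins, namely L1cam (-1.31), Mcam (-1.06) and the hyaluronan receptor gene Cd44 (-0.88). Significance was lost for Itga11 without J0_RIPK3 1 or J0_RIPK3 2 (0.53 to 0.58).

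Wnt pathway genes were called in both directions, which are given here by role. Of 43 listed genes 28 had J0_RIPK3 counts and 16 could be tested. Of these 16, 8 were higher and 5 lower (median 0.37). Among ligands, Wnt6 had 10.6, 13.0 and 9.93 CPM in J0_MLKL and 2.91, 2.92 and 2.41 CPM in J0_RIPK3 (log2 2.07 ± 0.16, adjusted p 2.91e-05), and the anti-adipogenic ligand gene Wnt10b (1.22) and Wnt9a (0.74) were higher, while Wnt5a was not called (0.19). Among receptors, Ror2 and Fzd2 (0.57) were higher and Fzd4 (-0.82) and Fzd8 (-0.75) lower. Among targets, Lef1 (1.31), Wisp1 (0.73) and Wisp2 (0.53) were higher. The secreted antagonist genes Sfrp2 and Dkk2 and the membrane inhibitor gene Apcdd1 were lower. Sfrp2 had 20.2, 20.6 and 18.1 CPM in J0_MLKL and 57.0, 56.4 and 55.3 CPM in J0_RIPK3 (log2 -1.47 ± 0.08, adjusted p 5.91e-06). Dkk2 differed by -1.95 ± 0.62 at mean levels of only 0.23 CPM in J0_MLKL and 0.92 CPM in J0_RIPK3, and Apcdd1 by -0.41 ± 0.09. Called ligands were therefore all higher and called inhibitors all lower, which covers only the few genes named here. Fzd8 and Apcdd1 lie on chromosome 18, and calls were lost for Dkk2 without J0_RIPK3 2 (-1.501) and Wnt9a without J0_RIPK3 1 or J0_RIPK3 3 (0.70 to 0.71). Without J0_MLKL 2 there were 11 higher and 5 lower.

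TGF-beta and BMP genes were divided, with 7 of 19 higher and 8 lower (median -0.13), or 8 and 9 without J0_MLKL 2. Apart from Chrdl1, ligand genes differed by family. Tgfb2 (0.39) and Tgfb3 (0.25) were higher, and the activin and inhibin subunit genes Inhba (-0.78) and Inhbb (-1.06) were lower. Among transducers, Smad3 (0.42) and Acvr1 (0.32) were higher, and Smad9 (-0.80) and Acvrl1 (-0.78) were lower. The decoy receptor gene Bambi had 3.10, 4.69 and 3.55 CPM in J0_MLKL and 10.1, 8.54 and 8.93 CPM in J0_RIPK3 (log2 -1.23 ± 0.17), and the inhibitory Smad7 was lower as well (-0.50), both on chromosome 18. Target genes split, with Id1 (-0.65) lower and Id2 (0.37) and Tgfbi (0.28) higher. Calls were lost for Tgfb2 without J0_MLKL 1, J0_RIPK3 1 or J0_RIPK3 3 (0.32 to 0.37), Tgfb3 without J0_RIPK3 2 (0.20) and Tgfbi without J0_MLKL 1, J0_RIPK3 2 or J0_RIPK3 3 and in 1 other alternative (0.18 to 0.30).

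Of 4 tested genes for binding proteins of insulin-like growth factors, 2 were lower, 1 was higher and 1 was not called. Igfbp4 (ENSMUSG00000017493, chromosome 11, 99041244 to 99054392, mm10) had 11.8, 13.3 and 8.69 CPM in J0_MLKL, 83.1, 83.1 and 83.8 CPM in J0_RIPK3 and 47.5, 46.4 and 40.2 CPM in J0_CTL (log2 -2.85 ± 0.14, adjusted p 5.33e-06). Igfbp3 had 1.47, 1.27 and 1.97 CPM in J0_MLKL, 7.56, 9.85 and 7.36 CPM in J0_RIPK3 and 13.4, 15.3 and 15.3 CPM in J0_CTL (log2 -2.35 ± 0.21). H19, the imprinted non-coding RNA next to Igf2 (ENSMUSG00000000031, chromosome 7, 142575529 to 142578143, mm10), had 0.561, 0.599 and 0.386 CPM in J0_MLKL, 12.4, 11.03 and 10.96 CPM in J0_RIPK3 and 7.13, 6.31 and 7.10 CPM in J0_CTL (log2 -4.42 ± 0.18, adjusted p 3.45e-06). J0_MLKL lay below J0_CTL for all 3. Igfbp7, the most read of the 4, was not called at 230.4, 299 and 229 CPM in J0_MLKL and 301, 279 and 295 CPM in J0_RIPK3 (log2 -0.16 ± 0.11). Igfbp6 (0.68) and the IGFBP protease gene Pappa2 (1.12) were higher, and Igf1 was not called (0.28), giving 2 higher and 3 lower of 8, or 4 and 4 without J0_MLKL 2. Other imprinted genes were lower in part: Peg3 had 34.4, 18.5 and 37.6 CPM in J0_MLKL and 100, 99.4 and 96.8 CPM in J0_RIPK3 (log2 -1.67 ± 0.22), with Peg10 (-0.87) and Impact (-0.80), the latter on chromosome 18. Slc38a4 (0.70) and Ndn (0.57) were higher.

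Growth factor signalling also differed gene by gene. Of 16 tested genes of FGF, PDGF, EGF and HGF signalling, 5 were higher and 6 lower, or 4 and 8 under the authors' scaling and 6 and 8 without J0_MLKL 2. Spry4, a feedback inhibitor of receptor tyrosine kinases on chromosome 18, had 2.63, 1.16 and 2.20 CPM in J0_MLKL and 9.88, 10.3 and 10.1 CPM in J0_RIPK3 (log2 -2.31 ± 0.24), while Spry1 and Spry2 were not called (0.21 and -0.18). Hgf had 14.4, 5.04 and 16.8 CPM in J0_MLKL and 31.7, 30.4 and 31.3 CPM in J0_RIPK3 (log2 -1.34 ± 0.35), and Egfr was lower (-1.25). J0_MLKL 2 was the lowest library for both Spry4 and Hgf. The ligand genes Pdgfb (1.24), Vegfc (1.14), Nrg1 (0.51) and Fgf7 (0.27) and the receptor gene Fgfr2 (0.31) were higher. The call ended for Nrg1 without J0_RIPK3 1 or J0_RIPK3 2 (0.48 to 0.49) and Fgfr2 without J0_MLKL 1, J0_MLKL 3, J0_RIPK3 1, J0_RIPK3 2 or J0_RIPK3 3 and in 1 other alternative (0.23 to 0.30). Of the 4 tested Notch and Hedgehog genes, Notch3 (-1.68) and Notch1 (-1.05) were lower and Gas1 (0.63) was higher.

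Axon guidance genes, which also steer fibroblast adhesion, were called in both directions, 8 higher and 7 lower of 20, or 10 and 8 without J0_MLKL 2. Of 7 tested semaphorin genes 4 were higher, with Sema7a at 3.28, 3.59 and 2.59 CPM in J0_MLKL and 0.906, 0.872 and 0.866 CPM in J0_RIPK3 (log2 1.88 ± 0.20), Sema3b (1.46), Sema3f (0.94) and Sema6a (0.60). Sema3a was lower, at 98.6, 65.0 and 104 CPM in J0_MLKL and 128, 131 and 128 CPM in J0_RIPK3 (log2 -0.49 ± 0.15), and the other 2 were not called. Significance was lost for Sema3a without J0_RIPK3 1, J0_RIPK3 2 or J0_RIPK3 3 (-0.52 to -0.50) and Sema6a without J0_MLKL 1, J0_RIPK3 1, J0_RIPK3 2 or J0_RIPK3 3 (0.47 to 0.64). The ephrin receptor gene Epha7 had 0.431, 0.0352 and 0.193 CPM in J0_MLKL and 2.20, 3.36 and 2.76 CPM in J0_RIPK3 (log2 -3.66 ± 0.47, or -4.54 without J0_MLKL 1), and the netrin gene Ntn1 (-0.97) and its receptor gene Unc5c (-0.79) were lower together. Genes of cAMP and G protein signalling had 3 higher and 4 lower of 16. The signalling brake Rgs16 had 41.1, 49.4 and 40.6 CPM in J0_MLKL and 12.5, 12.1 and 11.3 CPM in J0_RIPK3 (log2 1.91 ± 0.11), and its relative Rgs2 had 14.8, 18.2 and 14.4 and 43.3, 42.1 and 43.7 CPM (log2 -1.40 ± 0.11). These relatives thus moved in opposite directions without overlap. The cyclase gene Adcy7 (1.69) and the phosphodiesterase gene Pde4b (0.59) were higher, and Prkg2 (-1.22), Pde1a (-0.60) and Rgs4 (-0.30) were lower. The call was lost for Rgs4 without J0_MLKL 1, J0_MLKL 3, J0_RIPK3 1 or J0_RIPK3 2 (-0.31 to -0.25), and the list had 9 higher and 6 lower without J0_MLKL 2 and 3 and 6 under the authors' scaling.

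Of 9 tested ion channel and glutamate receptor genes, 4 were higher and 3 lower, or 5 and 3 without J0_MLKL 2. Kcnc2, a voltage-gated potassium channel gene on chromosome 10, had 36.2, 22.8 and 36.9 CPM in J0_MLKL, 6.93, 7.06 and 7.55 CPM in J0_RIPK3 and 0.230, 0.617 and 0.686 CPM in J0_CTL (log2 2.19 ± 0.19, adjusted p 5.24e-05). Both knockout lines stood above J0_CTL for Kcnc2, and J0_MLKL stood above J0_RIPK3. The inward rectifier gene Kcnj2 (2.88, or 3.66 without J0_RIPK3 1 and 2.29 without J0_RIPK3 3), Cacna1a (0.97) and Trpm5 (0.98) were higher too. Trpv4 (-1.84), the glutamate receptor gene Grik2 (-1.59) and Kcnip3 (-0.88) were lower. The call was lost for Kcnip3 without J0_MLKL 1, J0_MLKL 3 or J0_RIPK3 2 (-0.89 to -0.61).

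Homeobox and other positional identity genes were more often higher in J0_MLKL. Of 25 tested, 15 were higher and 5 lower (median 0.46), or 15 and 7 under the authors' scaling and 15 and 8 without J0_MLKL 2. Hoxc9 had 4.66, 6.59 and 4.91 CPM in J0_MLKL, 2.09, 1.48 and 1.38 CPM in J0_RIPK3 and 1.61, 1.54 and 0.969 CPM in J0_CTL (log2 1.76 ± 0.22). Hoxc5, whose annotated span overlaps its HoxC neighbours, had 1.94, 1.66 and 2.20 CPM in J0_MLKL and 0.472, 0.0872 and 0.0812 CPM in J0_RIPK3 (log2 3.27 ± 0.49, or 4.48 without J0_RIPK3 1). Hoxd3 (0.99), Hoxb2 (0.72), the Iroquois genes Irx3 (0.92) and Irx5 (0.86), and Twist1 (0.52) and Twist2 (0.58) were higher by less. Foxp2, a forkhead repressor, had 0.647, 0.247 and 0.348 CPM in J0_MLKL, 5.75, 5.49 and 5.41 CPM in J0_RIPK3 and 23.3, 24.6 and 24.1 CPM in J0_CTL (log2 -3.73 ± 0.26, adjusted p 2.11e-05). It was the most strongly lower of this list, with both knockout lines below J0_CTL. The other lower genes were Lhx2 (-0.77), Nr2f2 (-0.48), Foxd1 (-0.45) and Nr2f1 (-0.40). Calls were lost for Hoxb2 without J0_MLKL 3, J0_RIPK3 1 or J0_RIPK3 3 (0.56 to 0.76) and Twist2 without J0_RIPK3 2 (0.53).

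Metabolic and stress lists showed mixed calls. In glycolysis and hypoxia 3 of 11 were higher and 4 lower. Ndrg1, a hypoxia-induced gene, had 3.41, 4.26 and 4.33 CPM in J0_MLKL and 18.9, 19.04 and 18.9 CPM in J0_RIPK3 (log2 -2.20 ± 0.12), with Pfkfb3 (-1.09), Egln3 (-0.62) and Vegfa (-0.24) lower and Adm (0.91), Car9 (0.81) and Pfkp (0.55) higher. Hypoxia targets were thus on both sides, and the call was lost for Vegfa without J0_RIPK3 1, J0_RIPK3 2 or J0_RIPK3 3 and in 1 other alternative (-0.27 to -0.21). Of 8 antioxidant genes, Gsta3 (2.40), Osgin1 (0.81), Sod3 (0.66) and Gstm1 (0.49) were higher and Nqo1 (-0.67) and the catalase gene Cat (-0.33) lower. Gsta3 was read little, at mean levels of 0.81 CPM in J0_MLKL and 0.15 CPM in J0_RIPK3. Of 6 stress response genes, Xbp1 (0.52) and Psat1 (0.32) were higher and Sesn2 (-1.0) lower. Of 5 respiratory chain and TCA cycle genes, Cox4i1 (0.68) was higher and Cycs (-0.49), Cs (-0.39) and Ogdh (-0.30) lower. Immediate early genes had 2 higher of 12, Egr3 (0.69) and Ier3 (0.50), and 4 lower, Egr1 (-0.73), Fos (-0.58), Dusp1 (-0.57) and Jun (-0.39). The call ended for Ier3 without J0_RIPK3 2 or J0_RIPK3 3 (0.40 to 0.48) and Fos without J0_MLKL 1, J0_RIPK3 1 or J0_RIPK3 3 (-0.59 to -0.42). Circadian genes had 6 of 14 higher (8 without J0_MLKL 2 and 4 under the authors' scaling), led by the nuclear receptor gene Rora (1.20), and 1 lower, Cry2 (-0.21), while the core clock genes Arntl (-0.03), Per1 (0.19) and Per2 (-0.09) were not called. The call was lost for Cry2 without J0_MLKL 1, J0_RIPK3 1, J0_RIPK3 2 or J0_RIPK3 3 and in 1 other alternative (-0.24 to -0.18). The brown and thermogenic list had 1 tested gene, Ppargc1b, which was not called (0.43).

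Markers of the labelled cell type were read in both lines, at very unequal levels. Of 21 mesenchymal progenitor markers 20 had J0_RIPK3 counts and 11 could be compared, and these 11 summed to 12244 to 12867 CPM in J0_MLKL and 11117 to 11233 CPM in J0_RIPK3. Most of each sum came from the collagen genes Col1a1 (mean 5680 CPM in J0_MLKL and 4579 in J0_RIPK3) and Col3a1 (5434 and 5411). Mcam stood at only 0.61 and 1.31 CPM, so the sums say little about the less abundant markers. Within the list 6 were higher, among them Cd34 (0.91), Thy1 (0.40) and Col1a1 (0.35), and 4 were lower, namely Cd24a (-1.21), Mcam (-1.06), the fibroblast progenitor gene Pi16 (-1.03) and Ly6a (-0.43). The call was lost for Ly6a without J0_MLKL 1, J0_MLKL 3, J0_RIPK3 1 or J0_RIPK3 2 (-0.45 to -0.33). Several markers of other lineages were not listed or read at low levels. For skeletal muscle, 3 of 20 could be compared, summing to 15.8 to 22.9 CPM in J0_MLKL and 6.38 to 7.09 CPM in J0_RIPK3. Des (1.59) and Tnnt3 (0.99) were higher, and the defining genes Myod1 and Myog were in no table used here. Smooth muscle and pericyte markers summed to 392 to 543 CPM in J0_MLKL and 303 to 317 CPM in J0_RIPK3, with Des, Lmod1, Acta2 and Smtn (0.21) higher and Notch3 lower, and the call was lost for Smtn without J0_MLKL 3, J0_RIPK3 1, J0_RIPK3 2 or J0_RIPK3 3 and in 3 other alternatives (0.14 to 0.23). Acta2 made up most of these sums (mean 372 CPM in J0_MLKL and 226 in J0_RIPK3). Lmod1 and Acta2 are also members of the contractile list, so the lists share genes and are not separate observations. The part of smooth muscle genes in the contractile list was not tested.

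Osteoblast markers were lower in 4 of 6 tested, Bglap (-2.15), Bglap2 (-1.99), Phex (-1.45) and Dmp1 (-0.48), and higher in 1, Col1a1. Bglap and Bglap2 are near-identical genes and stood below 2 CPM in every library of both lines, and the call was lost for Dmp1 without J0_MLKL 2, J0_MLKL 3, J0_RIPK3 1, J0_RIPK3 2 or J0_RIPK3 3 and in 3 other alternatives (-0.51 to -0.37). Of 4 chondrocyte markers Comp (1.27) and Col11a2 (0.81) were higher, Sox5 (-0.81) was lower and Sox9 was not called (-0.08). Macrophage markers summed to 34.2 to 49.5 CPM in J0_MLKL and 46.9 to 51.5 CPM in J0_RIPK3, with Aif1 higher (0.95), Lyz2 lower and Ptprc and Adgre1 in no table used here. Endothelial markers summed to 4.25 to 5.18 and 3.84 to 4.75 CPM, with Egfl7 higher (1.10) and Cdh5 lower (-1.17). Epithelial markers summed to 4.21 to 5.71 CPM in J0_MLKL and 1.35 to 2.11 CPM in J0_RIPK3, with Krt7 (1.76) and Krt5 (1.09) higher and Epcam in no table used here. Of these calls, significance was lost for Krt5 without J0_MLKL 1, J0_MLKL 2, J0_RIPK3 1, J0_RIPK3 2 or J0_RIPK3 3 (0.84 to 1.10). Of 16 neuron and glia markers, 9 had J0_RIPK3 counts and summed to 86.0 to 90.0 CPM there. Only 2 of them had counts in both lines, summing to 0.70 to 1.18 CPM in J0_RIPK3, so the bulk of these reads could not be compared. The neuronal tubulin gene Tubb3, at most 1.18 CPM in any library of these lines, was lower (-2.44). In bulk RNA, fewer cells of a type and less RNA per cell cannot be told apart.

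Genes of chromosome 18 were lower as a block. Of 139 tested genes on that chromosome 118 were lower (84.9%) and 5 higher, and the median log2 fold change was -0.62. Each of the 5 windows of 20 Mb along the chromosome had a median between -0.57 and -0.72, so the medians were alike along it. Against the mean of the 6 libraries, the chromosome's median was -0.27, -0.38 and -0.27 in the J0_MLKL libraries and 0.32, 0.31 and 0.32 in the J0_RIPK3 libraries. The 6 libraries therefore fell into their groups on this measure. Set against J0_CTL with pooled reads, the median was -0.43 for J0_MLKL over 148 genes and 0.22 for J0_RIPK3 over 290 genes. Other chromosomes had medians of similar size against J0_CTL. For J0_MLKL these were -0.41 on chromosomes X and 14 and -0.40 on chromosome 4, with 0.44 on chromosome 8. For J0_RIPK3 the median was 0.28 on chromosome 5. Chromosome 18 therefore stood out between the lines more than in either line against J0_CTL. Without J0_MLKL 2 the chromosome 18 median of J0_MLKL over J0_RIPK3 was -0.56, with 121 lower and 9 higher of 140. Among the 20 chromosome 18 genes that were not listed in the table of J0_MLKL against J0_CTL, the median was -0.27 and 11 were lower. List members on this chromosome were few, and without them and the genes around Mdm2 the cell cycle list had 11 lower of 12, the cholesterol list 7 of 9 and the p53 list 12 of 15, with 0 higher in each.

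Other chromosomes leaned less. Chromosome 4 had 24 higher and 146 lower of 268 (median -0.27), and chromosome 2 had 55 higher and 126 lower of 267 (median -0.23). Chromosomes 7 and X leaned lower too (medians -0.21 and -0.22). The opposite lean was seen on chromosome 16, with 74 higher and 16 lower of 123 (median 0.30), and on chromosomes 9, 11, 15, 17 and 19, with medians from 0.31 to 0.34. Chromosome 8, which carries Mlkl, also leaned higher, with 115 higher and 41 lower of 236 (median 0.28). These leans were smaller, absent or of the other sign among genes not listed in the table of J0_MLKL against J0_CTL. There the median was -0.05 on chromosome 4 (8 higher and 11 lower of 46), 0.04 on chromosome 2 (19 higher and 10 lower of 65) and 0.01 on chromosome 16 (4 higher and 1 lower of 22). On chromosomes 9, 11, 15, 17 and 19 it was 0.12, 0.15, 0.07, 0.30 and 0.11. On chromosomes 7, 8 and X it was 0.07, 0.06 and 0.21. Chromosome 10 had 54 higher and 54 lower of 162. Around the targeted genes calls went both ways. Within 5 Mb of Mlkl 4 of 13 tested neighbours were higher and 3 lower (median 0.07), and within 5 Mb of Ripk3 4 of 17 were higher and 6 lower (median -0.17). Of 11 tested genes of the mitochondrial genome 9 were higher, from 0.16 for mt-Nd1 to 1.41 for mt-Atp6, and mt-Rnr2 (-0.22) and mt-Tp (0.14) were not called. Scaled by library totals, 8 were higher and 1 lower, and significance was lost for mt-Nd1 without J0_MLKL 1, J0_RIPK3 1 or J0_RIPK3 3 and in 3 other alternatives (0.11 to 0.16).

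**Figure D4:**
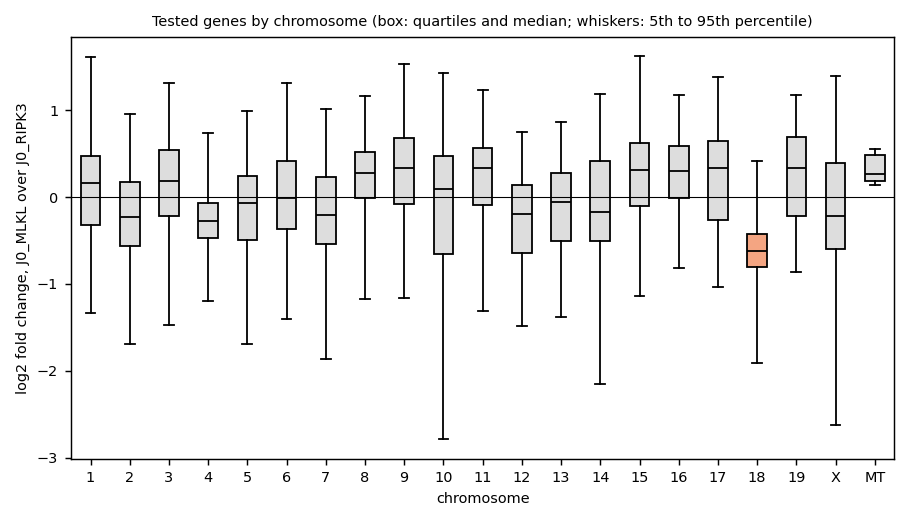
Log2 fold change of J0_MLKL over J0_RIPK3 for tested genes of each chromosome (boxes: quartiles with the median; whiskers: 5th to 95th percentile). Chromosome 18, in orange, has a median of -0.62 with its box below 0, and no other chromosome has a median below -0.27.

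The libraries of each line resembled each other, with 1 library apart from the rest. The root mean square log2 difference between libraries was 0.244 to 0.262 within J0_RIPK3 and 0.277 between J0_MLKL 1 and 3. J0_MLKL 2 differed from those by 0.462 and 0.467, and libraries of different groups differed by 0.924 to 1.04. The departure of J0_MLKL 2 followed transcript length. Its median log2 difference from the other J0_MLKL libraries was 0.27 in the 864 shortest tested genes (up to 2751 bases) and -0.23 in the 864 longest (6272 bases and over), on a scale of log2(CPM + 0.5). In J0_RIPK3 the same medians stayed between -0.01 and 0.02 in all 4 length groups. The comparison of the lines moved with length too: the median log2 fold change was 0.23, 0.09, -0.09 and -0.15 from the shortest to the longest of the 4 groups, and 0.14, 0.04, -0.07 and -0.10 without J0_MLKL 2. The part of transcript length in the results was not tested, and differences of about 0.2 in size, such as that of Col4a2 (0.19), are no larger than these shifts.

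The same pair of genotypes was compared at J7 in 6 other libraries, after the labelled differentiation. In the J7 knockout samples the titles and the genotype characteristic name different knockouts. Titles are used here, so each J7 direction would be reversed under the other label. Of 6591 genes tested at J7, 5723 were called (86.8%), 2952 higher (44.8%) and 2771 lower (42.0%) in J7_MLKL than in J7_RIPK3. A J7 difference beyond 1 was called for 59.5% of tested genes, and the libraries did not overlap for 91.0%. Scaling by library totals moved the J7 median from -0.03 to -0.20. Of 1694 genes called at J0 and tested at J7, 1116 were called in the same direction (65.9%), 370 in the opposite direction and 208 were not called. Of 886 genes higher in J0_MLKL, 726 had the same sign at J7 (81.9%), and of 808 lower genes 506 did (62.6%). Among 887 genes not called at J0, 504 had the same sign at J7 (56.8%).

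Large differences of undifferentiated cells were mostly found again by title. Of 431 genes with a J0 difference beyond 1 that were tested at J7, 292 were called in the same direction and 78 in the opposite one. Fmod went from 2.61 at J0 to 6.62 at J7 and Ror2 from 3.72 to 6.84. Among lower genes, Rab12 went from -5.30 to -3.45, Cpm from -5.00 to -2.94, Cebpa from -1.38 to -3.24 and Igfbp4 from -2.85 to -3.52. Mdm2 (0.77) and Slc35e3 (0.57) were higher and Nup107 (-0.53) lower at J7 as at J0. These named genes kept their direction. In the interferon list 30 of 31 tested genes were higher and 0 lower at J7, against 5 higher and 8 lower of 29 at J0. Cell cycle genes had 9 higher and 2 lower of 16 at J7 against 0 and 12 of 13 at J0. Of 25 adipocyte markers tested at J7, 23 were lower in J7_MLKL and 0 higher. The differences between stages, and the part of adipocyte differentiation in them, were not tested.

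**Figure D5:**
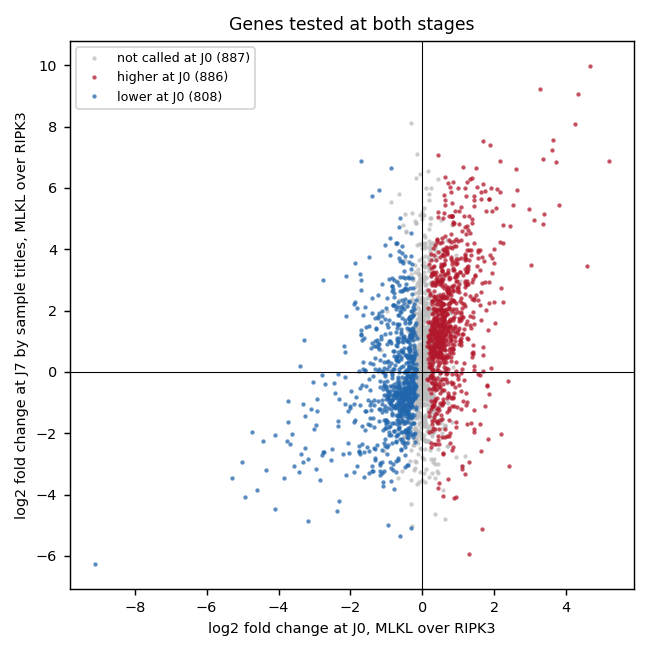
Log2 fold change of MLKL over RIPK3 at J0 (horizontal) and at J7 by sample titles (vertical) for genes tested at both stages, coloured by the J0 call (red higher, blue lower, grey not called). Of the 1694 genes called at J0, 1116 were called in the same direction at J7, and the J7 values span a wider range.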

How the data were processed

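Gene expression was measured by Illumina sequencing of libraries made from total RNA, per the labels' protocols. For each gene the authors deposited raw read counts made with featureCounts 1.5.0-p3 after alignment with HISAT2 to mm10, and checked reads with FastQC 0.11.9, per the submitters' processing notes; whether counting used strand is not given in the sources used here. The deposited tables also hold a normalised signal (each count divided by 1 size factor per library), FPKM values, the authors' log2 fold changes and the authors' p-values, which per the file headers accompany each of 7 comparisons made with DESeq2. Signal and FPKM as deposited by the authors were used only to recover size factors and library totals, and no deposited fold change or p-value is printed. Tables hold genes with an adjusted p below 0.05 in the authors' comparison, so a gene's presence is itself selected.

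Counts were joined by gene identifier over the 7 tables; 88950 counts appeared in more than 1 table and 0 differed. J0_MLKL had counts for 4217 genes and J0_RIPK3 for 13080. The contrast was fitted with edgeR 4.0.16 in R 4.3.3 (quasi-likelihood F test, TMM factors from the tested genes, filterByExpr), with library totals recovered from counts, FPKM and gene length, and with no replicate block. The SE is the log2 fold change divided by the square root of F. The fit was run on simulated data with 200 changed genes. Far more genes were called in the real data, so the simulation does not cover a set in which most genes differ. DESeq2 1.42.0, other scalings, filters, a replicate block and leaving out each library were the alternatives.

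Named genes were Mlkl and Ripk3, the 10 highest and 10 lowest called protein-coding genes with at least 5 CPM in the higher group and no overlap, and for each of 43 lists with at least 3 tested members the 2 called members with the largest change. Further genes, among them those around Mdm2 and further members of the lists, were named after their values were seen. Some genes that these rules name are not reported here. The members, lists and tests were chosen with earlier results of these data known. Same-numbered libraries of the lines correlated at 0.032, 0.015 and 0.081 in their deviations from the group means, so numbers are not treated as pairs.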

Additional observations from a re-analysis of the deposited data

Results flagged for a closer look

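For 63 genes named above, the libraries of the lines did not overlap at J0 or at J7, and the J0 and J7 log2 fold changes had opposite signs. Overlap was judged on CPM and the sign on the fitted fold change, so they can disagree where a difference is small. The difference between stages was not tested. Titles and the genotype characteristic name different knockouts in the J7 samples, and with the characteristic the J7 signs would turn. Values are J7 log2 fold changes of MLKL over RIPK3 by titles.

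Genes that were lower in J0_MLKL and higher in J7_MLKL included interferon-induced genes, at 6.88 for Oas2, 5.93 for Oas1a, 3.73 for Isg15 4.36 for Rtp4, 3.80 for Ifi44, 1.86 for Stat2, 1.74 for Ddx58 and 1.04 for the RNA sensor gene Ifih1, with 1.55 for the immunoproteasome gene Psmb9. Matrix, adhesion and secreted genes of this kind were Fbln5 (3.08), Fbn1 (3.05), Eln (3.04), Lum (2.10), Agrn (1.68), Inhba (2.57), Sema3a (2.37), Ctgf (3.13), Col12a1 (1.35), Cd44 (0.99), the Wnt antagonist gene Sfrp2 (3.75), Pi16 (4.13) and Dmp1 (2.70). The cell cycle genes Ckap2 (1.498), Mcm6 (1.01), Mybl2 (1.21), Aurkb (0.78), Rrm2 (0.071) and Ccnd1 (2.98) were among them too. Of these, Rrm2 was not called at J7, and its value is too small to give a direction there. The rest were Acvrl1 (2.45), Smad9 (1.58), Smad7 (0.77), Cpt1c (2.29), Egr1 (0.89), Cd24a (0.91), Rap1b (0.36), Bcl2l11 (1.42), Axl (1.24), Nqo1 (1.87), Prkg2 (1.91), Rgs4 (1.78), Grik2 (2.12), Foxd1 (0.55) and Ly6a (1.02), with Sox9 (1.73) and Spry2 (1.20), which were not called at J0.

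Genes that were higher in J0_MLKL and lower in J7_MLKL included lipid genes. These were the lipases Lipe (-2.44) and Lpl (-2.11), the acyl-CoA genes Acsl1 (-3.79) and Acadm (-1.83), the glyceride genes Agpat2 (-2.36) and Dgat1 (-1.88), and the regulators Nr1h3 (-2.66) and Srebf1 (-1.04). Others were C3 (-0.70), Xbp1 (-1.42), Des (-1.69), Pfkp (-1.53), Psat1 (-2.35), Pde4b (-0.99), Tgfbi (-1.10), Irx3 (-0.50), Mmp13 (-0.23) and Col11a2 (-0.87). Mmp13 was not called at J7.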

How the results depend on the processing

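In place of 2297 calls at J0, a separate fit of only the 1536 genes listed in the table of J7_MLKL against J0_MLKL made 876, and an added limit of 1 on the absolute log2 fold change left 617. With that limit the gene lists held 111 calls in place of 331. Leaving out 1 library gave 1903 (without J0_RIPK3 3) to 2708 calls (without J0_MLKL 2) at J0 and 5273 to 6282 at J7. With the replicate number as a block, 2258 genes were called at J0 and 5520 at J7. Same-numbered libraries share only a number, although each J0_MLKL library correlated best with the J0_RIPK3 library of its own number, with at most 0.081. DESeq2 called 1148 higher and 1158 lower at J0. Library totals in place of TMM gave 1065 higher and 1244 lower at J0. Of 317 named genes under up to 13 alternatives, 261 kept their direction and their side of the threshold in all of them. Genes that changed sign were 4, none of them called at J0. Leaving out 1 library gave -0.11 to 0.76 for Abcg1 (negative without J0_MLKL 2 or J0_RIPK3 2), -0.11 to 0.094 for Arntl (positive without J0_MLKL 2 or J0_RIPK3 1), -0.18 to 0.048 for Per2 and -0.12 to 0.0032 for Sox9 (both positive without J0_MLKL 2). Without J0_MLKL 2, calls were gained for Abca1 (0.56), Gbp7 (0.78), Igf1 (0.42), Igfbp7 (-0.31), Per1 (0.25), Ppargc1b (0.71), Spry1 (0.30), Spry2 (-0.15), Wnt5a (0.37) and mt-Rnr2 (-0.31). Spry2 and mt-Rnr2 were also called under 3 other scalings, mt-Rnr2 and Gbp7 with the replicate block and Gbp7 by DESeq2. Counts for single lists stayed within 1.5 times in 544 cases and moved further in 58. The limits are the preselected genes, 3 libraries per group of unstated origin, the length-dependent departure of J0_MLKL 2 and the J7 labels. Genes with few reads, such as Bglap or Hoxc5, have wide errors.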
